A study of Mus musculus with 4 samples.

Results

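The genes that write, read and remove DNA methylation were followed in lung smooth muscle cells (SMCs) of *Tet3* mutant and control mice. The set comprised 9 genes of the 21462 in the deposited expression table, picked by gene symbol, and all 9 were among the 16659 genes tested. The erasers were *Tet1*, *Tet2* and *Tet3* with the DNA glycosylases *Tdg* and *Mbd4*. The writers were *Dnmt1*, *Dnmt3a* and *Dnmt3b*, and the reader was *Uhrf1*.

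Mutant animals carried *Tet3* fl/fl alleles, an α-SMA-ERT2Cre transgene that is active only after tamoxifen and only in cells using the smooth muscle actin promoter, and a ROSA26 tdTomato reporter. Over all its experiments, the study describes controls as lacking the floxed allele and carrying the Cre transgene, the reporter or both. The sequenced cells were sorted by the reporter, so these controls carried it, and it marks SMCs through the Cre. All animals were C57BL/6, and tamoxifen was given to adults with no exception stated for controls. Reporter-positive cells were sorted from lung after bead depletion of blood cells, and ribosome-depleted total RNA was sequenced from 2 control and 2 Tet3 mutant libraries, which the study describes as separate animals. The exons removed by Cre were not given in the sources used here, so the gene-level count of *Tet3* need not fall to 0 in a recombined cell.

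In vertebrate DNA, methylation sits mainly on cytosines followed by guanine (CpG). DNMT3A and DNMT3B place new methyl groups, and DNMT1 copies the pattern after replication, when UHRF1 binds the half-methylated site and recruits it. TET enzymes oxidize the methyl group in steps, TDG excises the later oxidation products, and base excision repair then restores an unmodified cytosine.

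Values are normalized counts, which are reads per gene scaled between libraries by the authors and rounded, and about 6.32 M to 7.55 M reads per library were assigned to genes. Each fold change sets the mutants over the controls as log2(value + 1), a scale that understates changes of genes with low values, and their p-values come from limma with Benjamini-Hochberg adjustment over all genes tested. *Xist*, the X-inactivation RNA, stood at 6781 in control replicate 1, 2 in control replicate 2, 6542 in Tet3 mutant replicate 1 and 5214 in Tet3 mutant replicate 2. *Ddx3y* of the Y chromosome was at 774 in control replicate 2 and at 0 in the other libraries, so that library alone had a male pattern. The label of the cells was checked against marker genes as the mean level per kilobase of exon. The 8 smooth muscle markers averaged 155 to 188 normalized counts per kilobase in the controls and 209 to 224 in the mutants, with *Myh11* at 1330, 2300, 2473 and 2249 and *Smtn* at 1113, 747, 1100 and 963 normalized counts over control replicates 1 and 2 and mutant replicates 1 and 2. Markers of 4 other lung cell types were higher, and no marker of these 5 lists was at 0 in any library. The 6 alveolar type 2 markers averaged 663 and 945 per kilobase in the control pair against 532 and 606 in the mutant pair, and the macrophage markers 322 to 365, the fibroblast markers 255 to 349 and the endothelial markers 257 to 307 over the 4 libraries. Several marker lists differed between the groups, the T cell list mainly through control replicate 2. T cell marker sums were 538 and 137 normalized counts in the control pair against 590 and 579 in the mutant pair. The median log2 fold change of that list was 1.16, and 0.22 without control replicate 2. B cell marker sums were also lowest in control replicate 2, at 457 and 144 against 445 and 225. Lying above both controls in both mutants, where 19.6% of all genes did, were 6 of 6 ciliated cell, 5 of 5 pericyte, 5 of 6 neutrophil, 5 of 8 smooth muscle, 4 of 6 macrophage, 4 of 6 T cell, 3 of 6 fibroblast, 2 of 6 endothelial and 0 of 6 B cell markers. Lying below them, where 19.5% of all genes did, were 5 of 6 alveolar type 2 markers. The part of these cells in the values below was not tested, and in bulk RNA fewer cells of a type and less RNA per cell cannot be told apart.

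None of the 9 genes passed an adjusted p of 0.05, as was the case for all 16659 genes (0% called). At an unadjusted p under 0.05, *Tet3* and *Tdg* were lower in the mutants, which is 2 of 9 genes, against 6.68% of all genes in either direction, 2.85% in the lower and 3.83% in the higher direction. The groups did not overlap for 6 of the 9 genes, against 39.0% of all genes. *Tet3*, *Tdg* and *Dnmt3a* lay lower in both mutants, where 19.5% of all genes did, and *Dnmt1*, *Uhrf1* and *Mbd4* lay higher, where 19.6% did. *Tet1*, *Tet2* and *Dnmt3b* overlapped between the groups. The median log2 fold change of the 9 genes was -0.12, and that of all genes tested was -0.01. With a library left out, the median of the 9 ran from -0.22 without control replicate 2 to -0.034 without mutant replicate 2, and it was -0.20 without mutant replicate 1 and -0.049 without control replicate 1.

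**Figure D1:**
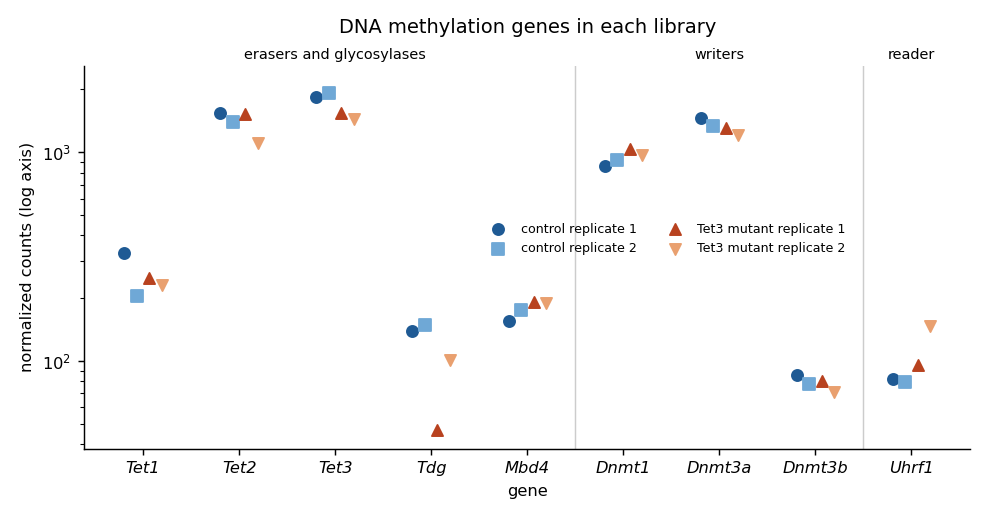
Normalized counts (log axis) of the 9 DNA methylation genes in each of the 4 libraries, grouped by role. Both mutant libraries lay below both controls for *Tet3* (1534 and 1444 against 1847 and 1926), *Tdg* and *Dnmt3a*, and above them for *Dnmt1*, *Mbd4* and *Uhrf1*.

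*Tet3*, the targeted dioxygenase (ENSMUSG00000034832, chromosome 6, 83362373 to 83459084, minus strand, GRCm38), was read at 1847 (control replicate 1), 1926 (control replicate 2), 1534 (Tet3 mutant replicate 1) and 1444 (Tet3 mutant replicate 2) normalized counts. Both mutants were lower, and their mean was 78.9% of the control mean. The counting intervals did not meet either, with 1766 to 1932 and 1839 to 2016 in the controls and 1455 to 1616 and 1374 to 1516 in the mutants (95% Poisson intervals from estimated reads, counting error only). Means were 1886 ± 55.9 (SD, n = 2) and 1489 ± 63.6 (SD, n = 2). The log2 fold change was -0.34 ± 0.10 (SE), at an unadjusted limma p of 0.0184 and an adjusted p of 0.68, and 323 genes had a smaller p. Without control replicate 2, the library with the male pattern, it was -0.31 (unadjusted limma p 0.0413), and the unadjusted limma p was 0.0731 without mutant replicate 1 and 0.12 without mutant replicate 2.

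The annotation places 3 other transcripts inside *Tet3*, all outside its exons and all named after their values were seen. One of these, 5430434F05Rik (chromosome 6, 83417440 to 83420992), lies on the same strand within the *Tet3* intron between 83404824 and 83436797. It stood at 85 and 109 normalized counts in the control pair against 57 and 42 in the mutant pair, a log2 fold change of -0.96 ± 0.30 (SE) (unadjusted limma p 0.0230, adjusted p 0.68). Both mutants were again lower. The microRNA gene *Mir6374*, on the same strand, had 10 and 12 against 5 and 5, also lower in both, and B230319C09Rik, on the opposite strand, had 9 and 9 against 9 and 4, which overlapped. Both were below the minimum mean and were not tested. Of the 10830 windows of 75 bases in the longest *Tet3* transcript, 0 occurred in a transcript of another annotated gene.

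A promoter of *Tet3* is shown because it belongs to the targeted gene and because CpG sites are what all 9 proteins act on (RefSeq, GRCm38.p6, chr6:83441629-83441928, minus strand, 5′ to 3′, from 250 bases before to 50 after the annotated start). This start lies inside the gene, whose 5′ end is at 83459084. The promoter also overlaps B230319C09Rik, which begins at 83441755 on the opposite strand. The capitals mark the 22 CpG sites of this promoter. At least as many were found in 23.1% of the 32851 promoters of this length, whose median was 7.
Tet3: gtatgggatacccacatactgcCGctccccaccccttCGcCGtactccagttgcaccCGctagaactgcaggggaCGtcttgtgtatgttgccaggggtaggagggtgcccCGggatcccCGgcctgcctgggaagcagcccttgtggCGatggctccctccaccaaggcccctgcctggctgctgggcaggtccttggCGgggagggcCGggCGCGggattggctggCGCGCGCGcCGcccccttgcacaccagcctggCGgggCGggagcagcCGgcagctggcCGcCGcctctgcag

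*Tet2* (ENSMUSG00000040943, chromosome 3), another TET dioxygenase, had 1548 and 1389 normalized counts in the control pair against 1520 and 1110 in the mutant pair. Mutant replicate 1 lay within the control range and mutant replicate 2 below it. The log2 fold change was -0.17 ± 0.18 (SE) (unadjusted limma p 0.37), and it turned to 0.052 when mutant replicate 2 was left out. *Tet1* (ENSMUSG00000047146, chromosome 10), the family member best known from embryonic stem cells, had 330 and 205 in the control pair against 250 and 231 in the mutant pair. Here the controls enclosed both mutants, the log2 fold change was -0.11 ± 0.26 (SE) (unadjusted limma p 0.68), and it turned to 0.23 without control replicate 1. The difference could therefore not be given a direction for either gene.

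Levels of the 3 TET genes were then compared per kilobase of exon, since their lengths differ. *Tet3* had 111 and 115 normalized counts per kilobase in the control pair against 91.9 and 86.5 in the mutant pair. *Tet2* had 91.8 and 82.3 in the control pair against 90.1 and 65.8 in the mutant pair, and *Tet1* had 21.4 and 13.3 against 16.2 and 14.9. By exon length the order *Tet3*, *Tet2*, *Tet1* held in all 4 libraries. By the longest transcript, *Tet2* (166) was above *Tet3* (141) in mutant replicate 1. The TET sum was 224 and 211 per kilobase in the control pair against 198 and 167 in the mutant pair. *Tet3* made up 49.5% and 54.7% of that sum in the control pair against 46.4% and 51.7% in the mutant pair. These shares overlapped, with means of 52.1% ± 3.70 (SD, n = 2) and 49.0% ± 3.78 (SD, n = 2), a difference of -3.02 percentage points and a two-sided exact permutation p of 0.667, where 2 against 2 libraries cannot go below 0.333.

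*Tdg* (ENSMUSG00000034674, chromosome 10, 82629828 to 82650799, plus strand), the glycosylase that removes oxidized methylcytosine, had 139 and 149 normalized counts in the control pair against 47 and 101 in the mutant pair. Mutant replicate 1 was the lowest and mutant replicate 2 lay between it and the controls. The log2 fold change of -1.05 (standard error 0.40, unadjusted limma p 0.0462, adjusted p 0.68) was the furthest from 0 among the 9 genes. It was -0.51 without mutant replicate 1 and -1.59 without mutant replicate 2. The counting interval of mutant replicate 2, 83.1 to 121, met that of control replicate 1, 118 to 164, and that of mutant replicate 1 was 33.9 to 63.2. The annotation of *Tdg* overlaps that of *Glt8d2*, on the opposite strand, by 367 bases. *Glt8d2* had 249 and 168 normalized counts in the control pair against 280 and 287 in the mutant pair. Nearby, 1190007I07Rik (82619851 to 82623228, minus strand) had 31 and 37 against 8 and 27, a log2 fold change of -1.14 ± 0.63 (SE). A link to *Tdg* was not tested.

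*Tdg* has processed pseudogenes, and 47.2% of its 3428 transcript windows of 75 bases also occurred in another annotated gene. Reads from such windows were excluded by the authors as mapping to several places, so the level of *Tdg* is uncertain. *Tdg-ps2* (ENSMUSG00000085666, chromosome 10, 42054113 to 42055306, minus strand), listed in GENCODE under the same identifier as Gm9855, is one of those pseudogenes. It shared 22.3% of the *Tdg* windows and was named after its values were seen. It stood at 1 and 0 normalized counts in the control pair against 31 and 18 in the mutant pair. Both mutants were thus above both controls, the reverse of *Tdg*. The estimated reads were 1 over the controls and 48 over the mutants, a ratio of 47.2 (95% counting interval 8.07 to 1901). It reached the minimum mean of 10 only through the mutants, with a control mean of 0.5 and a mutant mean of 24.5. Its unadjusted limma p of 0.00155 (rank 17 of 16659 genes, adjusted p 0.68) is therefore a description and not a test. Its fitted log2 change rests on the value added before the logarithm, at 4.12 with 1, 4.80 with 0.5 and 1.91 with 8. The sum of *Tdg* and *Tdg-ps2* was 140.0 and 149 in the control pair against 78 and 119 in the mutant pair. It was lower in both mutants (two-sided exact permutation p of 0.333, the smallest that 2 against 2 libraries allow). Reads from the windows they share are missing from both genes. The level of *Tdg-ps2*, its ratio and this sum are therefore uncertain too, and the sum cannot show their total RNA.

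**Figure D2:**
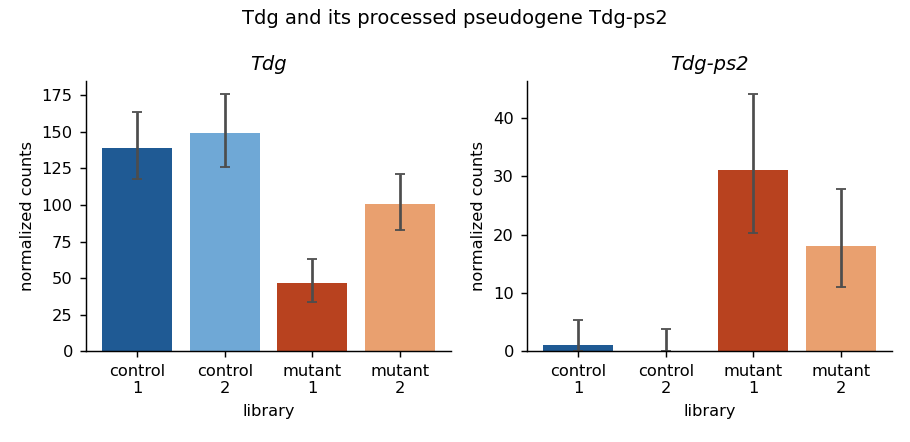
Normalized counts of *Tdg* (left) and its processed pseudogene *Tdg-ps2* (right) in each library, on separate axes that start at 0, with 95% Poisson intervals of the estimated reads as bars. *Tdg* stood at 139 and 149 in the controls and at 47 and 101 in the mutants, while *Tdg-ps2* stood at 1 and 0 in the control pair against 31 and 18 in the mutant pair.

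*Mbd4* (ENSMUSG00000030322, chromosome 6), a glycosylase with a methyl-CpG binding domain that repairs thymine opposite guanine, had 155 and 176 normalized counts in the control pair against 192 and 189 in the mutant pair. Both mutants were higher, with a log2 fold change of 0.20, a standard error of 0.17 and an unadjusted limma p of 0.29. The fold change was 0.11 without control replicate 1.

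Among the writers, *Dnmt1* (ENSMUSG00000004099, chromosome 9) had 855 and 914 normalized counts in the control pair against 1032 and 967 in the mutant pair. Both mutants were higher, by 0.18 on the log2 scale (standard error 0.11, unadjusted limma p 0.16). *Dnmt3a* (ENSMUSG00000020661, chromosome 12), the main de novo enzyme of differentiated tissue, had 1465 and 1342 in the control pair against 1307 and 1206 in the mutant pair. Both mutants were lower here, at a log2 fold change of -0.16 (standard error 0.11, unadjusted limma p 0.20), and at -0.096 without control replicate 1 and -0.10 without mutant replicate 2. *Dnmt3b* (ENSMUSG00000027478, chromosome 2), the de novo enzyme best known from the early embryo, had 86 and 78 in the control pair against 80 and 71 in the mutant pair, and these ranges overlapped. Its log2 fold change of -0.12 (standard error 0.24) ran from -0.20 without mutant replicate 1 to -0.034 without mutant replicate 2. Of its transcript windows 7.7% also occurred in *Dnmt3c*, so its level carries some uncertainty.

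Within the DNMT sum per kilobase, *Dnmt1* made up 52.5% and 56.4% in the control pair against 59.8% and 60.3% in the mutant pair. *Dnmt3a* made up 39.9% and 36.7% in the control pair against 33.5% and 33.3% in the mutant pair. Neither share overlapped between groups, and for both the two-sided exact permutation p was 0.333, the smallest possible. The DNMT sum itself overlapped, at 221 and 220 per kilobase in the control pair against 234 and 217 in the mutant pair. Divided by the TET sum it was 0.987 and 1.04 in the control pair against 1.18 and 1.30 in the mutant pair, again with an exact permutation p of 0.333. The TET sum includes *Tet3*, the targeted gene, so this ratio is not independent of the *Tet3* values above.

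The reader *Uhrf1* (ENSMUSG00000001228, chromosome 17) had 82 and 79 normalized counts in the control pair against 96 and 148 in the mutant pair. Mutant replicate 2 was the highest, and the counting interval of mutant replicate 1, 76.9 to 118, met that of control replicate 1, 65.2 to 101. The log2 fold change was 0.56 ± 0.29 (SE) (unadjusted limma p 0.11), and 0.25 without mutant replicate 2. Of its transcript windows 11.3% were shared with the pseudogene Gm5648.

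**Figure D3:**
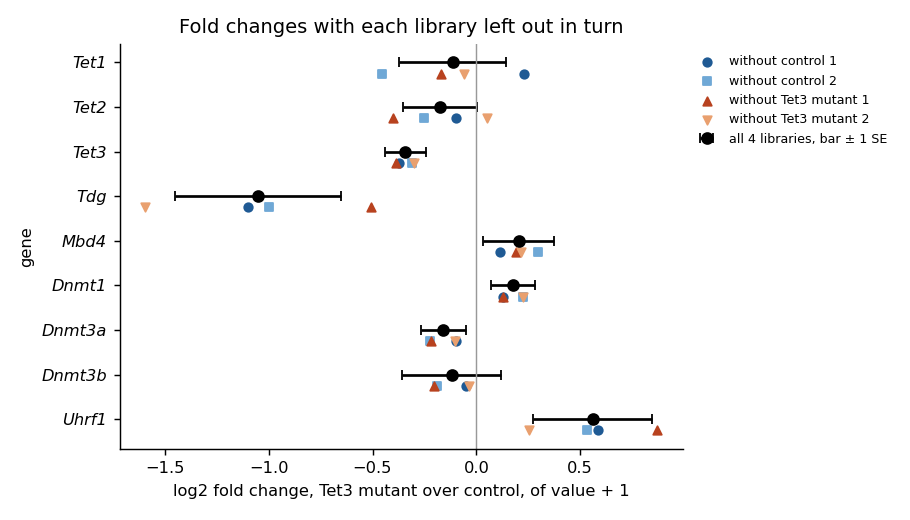
Log2 fold change (Tet3 mutant over control, of value + 1) of the 9 genes over all 4 libraries, with bars of 1 standard error, and below each the value with 1 library left out. *Tet3* stayed between -0.39 and -0.30, while *Tdg* ranged from -1.59 to -0.51 and *Tet1* and *Tet2* crossed 0.

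UHRF1 and DNMT1 act behind the replication fork, and so the promoters of all 9 genes were searched for the E2F-type motifs TTTGGCGC and TTTCGCGC on both strands. Among the 14 RefSeq promoters of the 9 genes, 2 held a match (14.3%), 1 of *Dnmt1* and 1 of *Uhrf1*, whereas 0.813% of all 32851 promoters did. Genes with several promoters have more chances of a match. Both motifs also contain a CpG, and the 14 promoters had a median of 25.5 CpG sites against 7 over all promoters. The 2 shares are therefore not matched for CpG content. Of the 8 S phase genes with a promoter sequence, 4 held one. Both promoters are shown because they carry these matches, marked in capitals, and each has 33 CpG sites (RefSeq, GRCm38.p6, 5′ to 3′). The *Dnmt1* promoter is at chr9:20952574-20952873 on the minus strand and the *Uhrf1* promoter at chr17:56304063-56304362 on the plus strand. A match is a description of the sequence and not evidence of binding.
Dnmt1: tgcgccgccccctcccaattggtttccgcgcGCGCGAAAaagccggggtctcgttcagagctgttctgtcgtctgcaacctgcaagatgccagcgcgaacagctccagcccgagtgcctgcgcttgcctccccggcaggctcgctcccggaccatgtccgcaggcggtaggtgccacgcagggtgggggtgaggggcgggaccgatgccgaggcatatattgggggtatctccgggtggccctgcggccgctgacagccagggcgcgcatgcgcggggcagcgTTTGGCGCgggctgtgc
Uhrf1: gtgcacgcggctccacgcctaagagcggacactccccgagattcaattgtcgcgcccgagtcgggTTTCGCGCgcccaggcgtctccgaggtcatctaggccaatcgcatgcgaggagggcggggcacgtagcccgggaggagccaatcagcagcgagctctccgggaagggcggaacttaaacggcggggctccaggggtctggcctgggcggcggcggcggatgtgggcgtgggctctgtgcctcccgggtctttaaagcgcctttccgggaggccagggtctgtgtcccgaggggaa

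The cell cycle genes were read beside these. Of 10 S phase genes, 8 had a fold change above 0, with a median log2 fold change of 0.16. In both mutants 4 lay higher and 1 lay lower, and 0 passed an unadjusted limma p of 0.05. Of all genes, 8145 of 16659 were above 0, and 19.6% lay higher and 19.5% lower in both mutants. The median of the S phase genes was 0.026 without mutant replicate 2 and 0.40 without mutant replicate 1. Their summed values were 2418 and 2259 normalized counts in the control pair against 2209 and 2901 in the mutant pair, so mutant replicate 2 was the highest and mutant replicate 1 the lowest. The low sum of mutant replicate 1 rests on *Mcm6*, which had 374 and 357 in the control pair against 148 and 414 in the mutant pair. The 6 mitosis genes had a median of 0.42 and sums of 1358 and 1162 in the control pair against 1389 and 1798 in the mutant pair, with 0 at an unadjusted limma p under 0.05. Their median was 0.19 without mutant replicate 2 and 0.82 without mutant replicate 1. Of the 6 mitosis genes, 5 were above 0 and 3 lay higher in both mutants. *Mki67*, the proliferation marker, had 890 and 762 in the control pair against 915 and 1047 in the mutant pair. *Pcna*, counted with the partners of the writers below, lay lower in both mutants, at 256 and 232 against 193 and 211. Mutant replicate 2 was thus the highest library for *Uhrf1* and for both cell cycle sums. *Dnmt1* was instead highest in mutant replicate 1, at 1032 against 967 in mutant replicate 2. The part of cycling cells in the *Uhrf1* and *Dnmt1* values was not tested.

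Set side by side per kilobase, the 9 genes fell into a high and a low range. In controls the order was *Dnmt1* (120 ± 5.66, SD, n = 2), *Tet3* (113 ± 3.35), *Tet2* (87.0 ± 6.66), *Dnmt3a* (84.3 ± 5.23), *Mbd4* (31.3 ± 2.81), *Tdg* (26.8 ± 1.32), *Uhrf1* (18.9 ± 0.50), *Tet1* (17.3 ± 5.72) and *Dnmt3b* (16.1 ± 1.11), all in normalized counts per kilobase of exon. The control ranges of *Tet2* and *Dnmt3a* overlapped, as did those of *Uhrf1* and *Tet1* and those of *Tet1* and *Dnmt3b*, so these neighbours did not differ beyond their spread. *Tet3* stood above 74.6% of all genes tested and *Dnmt3b* above 20.2%. In the mutant means, by exon length, the first 5 kept this order and *Tdg* was last. Mutant replicate 2 alone differed, with *Dnmt3a* (72.5) above *Tet2* (65.8) and *Tdg* (18.8) above *Tet1* (14.9) and *Dnmt3b* (13.9). The place of *Tdg* is uncertain in any case, since reads from windows shared with its pseudogenes were excluded. With the longest transcript as the length the order of the means differed. *Tet3* then led in the controls and *Dnmt1* was at place 3, while in the mutants *Dnmt1* led, *Tet3* was at place 3, *Tdg* at place 7 and *Tet1* last.

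**Figure D4:**
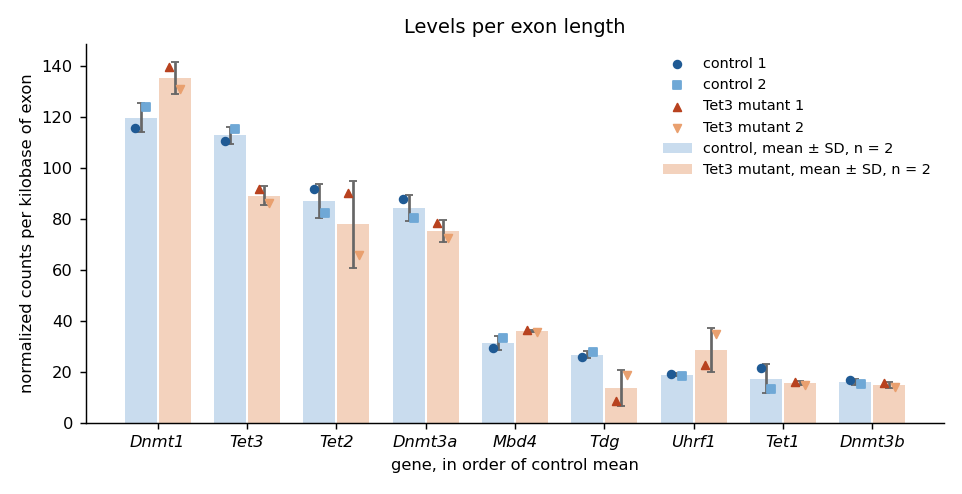
Normalized counts per kilobase of exon for the 9 genes, in order of the control mean, with bars at the mean, error bars of 1 SD (n = 2) and points for the libraries. *Dnmt1* (120 in controls), *Tet3*, *Tet2* and *Dnmt3a* formed the high range, and the other 5 genes were below 40.

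The rest of the methylation pathway was read from 6 lists, of which 46 genes were tested beside the 9. At an unadjusted limma p under 0.05 there was 1 of 46, against 6.68% of all genes, and 0 passed the adjusted threshold. The groups did not overlap for 18 genes that were lower and 5 that were higher in the mutants, against 19.5% and 19.6% of all genes. Fold changes were above 0 for 17 of the 46 genes, against 8145 of 16659 genes, and their median was -0.08.

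Among 8 readers of methylated DNA the median log2 fold change was -0.05. *Zbtb38*, a zinc finger protein that binds methylated CpG, was the gene at an unadjusted p under 0.05. It had 1950 and 1990 normalized counts in the control pair against 1490 and 1724 in the mutant pair, lower in both mutants, with a log2 fold change of -0.30 (standard error 0.12, unadjusted limma p 0.0487, adjusted p 0.68). *Zbtb4*, the reader of highest mean, had 1798 and 2110 against 1724 and 1778. The 10 partners of the writers had a median of -0.13, and *Usp7*, a deubiquitinase that binds UHRF1 and DNMT1, had 1661 and 1630 against 1601 and 1461. With a library left out, the median of the readers ran from -0.12 to -0.0061 and that of the partners from -0.17 to -0.012.

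The 8 genes of TET partners and cofactor supply had a median of -0.17, with 2 of 8 above 0, but the median was -0.027 without control replicate 2 and -0.069 without mutant replicate 2. *Ogt*, a glycosyltransferase that binds TET proteins, had 2158 and 2165 normalized counts in the control pair against 2097 and 1571 in the mutant pair, lower in both and furthest in mutant replicate 2. Over 14 base excision repair genes, a list that also holds other DNA glycosylases and the *Gadd45* genes, the median was -0.04. *Parp1*, the repair gene of highest mean, had 603 and 671 against 734 and 748. The repair median ran from -0.097 to -0.0076 with a library left out. Of the 3 genes of methyl donor supply, *Mat2a*, which makes S-adenosylmethionine, had 1645 and 1890 against 1540 and 1309, a log2 fold change of -0.31 ± 0.14. (SE)

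Of 15 germline genes known to be silenced by methylation, 4 were in the table, 3 were tested, and the others were not analysed here. *Brdt*, the one of highest mean, had 59 and 37 normalized counts in the control pair against 77 and 73 in the mutant pair, higher in both (log2 fold change 0.67, standard error 0.33), and no germline gene was at an unadjusted limma p under 0.05. *Brdt* was the only 1 of the 3 tested genes with a fold change above 0. *Tex11* lay lower in both mutants, at 69 and 83 against 12 and 62 (log2 fold change -1.42, standard error 0.77). The list median was -0.24, and with a library left out it ran from -0.39 to 0.057.

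**Figure D5:**
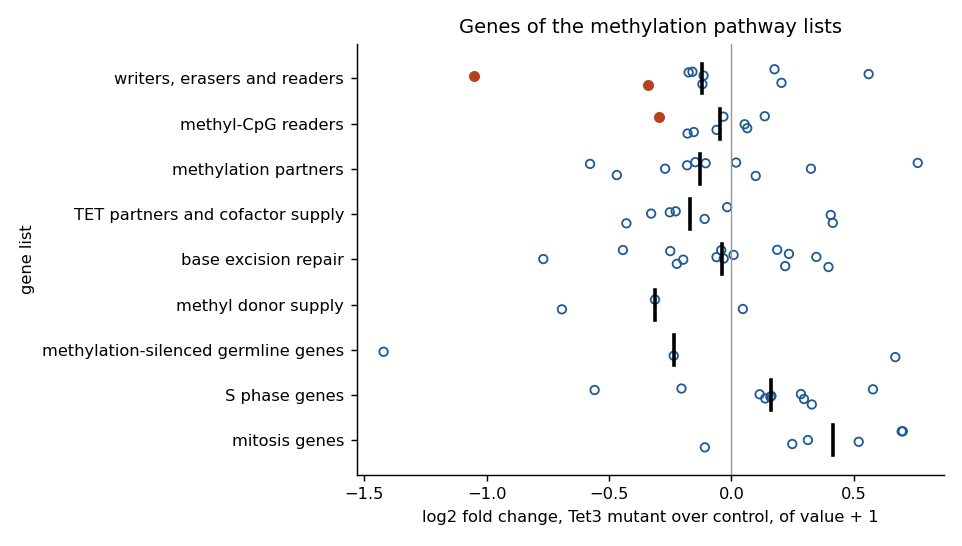
Log2 fold change (Tet3 mutant over control, of value + 1) of each tested gene, by list, with a black line at the list median, and filled points at an unadjusted limma p under 0.05. *Tdg* (-1.05), *Tet3* (-0.34) and *Zbtb38* (-0.30) are the 3 filled points, and the S phase and mitosis medians lie above 0.

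The pathway genes whose pattern over the 4 libraries was nearest to that of *Tet3* were *Mat2a*, *Zfp445*, which helps to keep methylation at imprinted loci, and *Polb*, the gap-filling polymerase of base excision repair. Their root mean square differences from *Tet3* in centred log2 values were 0.07, 0.08 and 0.09. *Zfp445* had 1323 and 1344 normalized counts in the control pair against 1235 and 1120 in the mutant pair. *Polb* had 342 and 342 against 319 and 259. With 4 libraries such likeness is a description only.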

How the data were processed

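RNA from sorted lung SMCs (50 ng of total RNA per library) was depleted of ribosomal RNA and made into stranded libraries, 2 control and 2 Tet3 mutant, grouped and numbered by their labels. Per the labels, reads were processed with FastQC, Trimmomatic 0.36, STAR 2.6.0c and featureCounts of Subread 1.6.0 on mm10 (GRCm38). The authors excluded reads mapping to several places or genes and scaled the counts with DESeq2. Whether counting used strand is not given in the sources used here, which leaves values of genes with an antisense partner uncertain. The deposited values are a score, namely normalized counts that the authors rounded to whole numbers, and raw counts could not be recovered from them.

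Deposited totals were 7003231 and 7164573 in the control pair against 6893578 and 6805272 in the mutant pair. Scaling factors of 0.961, 1.05, 1.09 and 0.901, estimated from how often each low value occurred, gave the read depths and the counting intervals, which cover counting error only because reads lack molecular identifiers.

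Genes whose mean reached 10 were tested on log2(value + 1) with limma 3.58.1 in R 4.3.3 (lmFit, eBayes with trend), at an adjusted p of 0.05. The scripts were tested on simulated data. With 2 libraries a group, limma p-values and standard errors rest on the spread between these samples, drawn toward that of other genes of similar level. The standard error of *Tet3* was 0.10 with the trend and 0.14 without it. Exact permutation tests were run in scipy 1.17.1. Exon lengths, transcript windows and introns came from GENCODE (GRCm38), where 99.8% of the identifiers matched, and promoters from RefSeq, without those of chromosome 18.

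The 9 genes and the lists were chosen with earlier results of these data known. Named genes were the 9, each pathway list's gene of highest mean and its genes at an unadjusted p under 0.05, the 3 genes most like *Tet3*, the 2 smooth muscle markers of highest mean, *Xist* and *Ddx3y*. *Mki67*, *Mcm6*, *Pcna*, *Tex11*, *Tdg-ps2*, the genes overlapping or near *Tdg* and the transcripts inside *Tet3* were named after their values were seen. Alternatives were other pseudocounts, minimum means, scalings, no trend, a replicate block, other lengths and leaving out each library.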

Additional observations from a re-analysis of the deposited data

How the results depend on the processing

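No gene of the 9 passed the adjusted threshold under any of the 12 alternatives run. All 9 kept their direction with a pseudocount of 0.5 or 8, a minimum mean of 1 or 50, equal library totals, upper-quartile scaling, no mean-variance trend and a replicate block, and 7 of 9 kept it with each library left out. *Tet1* then ranged from -0.46 to 0.23 and *Tet2* from -0.40 to 0.052. *Tet3* stayed between -0.39 and -0.29, and its smallest adjusted limma p was 0.22 and its largest 0.998. The count of the 9 genes at an unadjusted p under 0.05 was 2, but 1 with equal library totals, where *Tdg* had 0.0526, and 0 without the trend. With a library left out it ran from 1 to 2 and the genes changed. They were *Tet3* without control replicate 1, *Tet3* and *Tet1* without control replicate 2, *Uhrf1* without mutant replicate 1 and *Tdg* without mutant replicate 2. Over all genes, 1 passed the adjusted threshold without the trend. The pathway lists gave 1 to 6 genes at an unadjusted p under 0.05 with a library left out, the 6 without control replicate 1. All genes at that p went from 1112 to 3366 without control replicate 1, 273 without mutant replicate 1 and 414 without mutant replicate 2. With equal library totals the split of all such genes was 355 lower and 796 higher, against 474 and 638. With the longest transcript as length, 4 of 9 genes kept their rank. The *Tet3* share difference ran from -5.70 to -0.35 percentage points with a library left out. In fits that left out a library, the lone library was assumed to vary like the other group. The cause of these shifts was not tested.

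With the replicate number as a block, *Tet3* stayed at -0.34 (adjusted limma p 0.47), and 0 genes passed the adjusted threshold with 1637 at an unadjusted p under 0.05. Samples of the same number deviated together only weakly (r of 0.13 across 16659 genes, which are not independent), and with 2 pairs the numbers were not taken to pair them. Count-based tests with edgeR and DESeq2 had no whole reads to work on and were left out as not run. At this depth *Dnmt3b*, *Uhrf1* and *Tdg* rest on at most 164 estimated reads a library.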
